A study of Mus musculus with 4 samples.

Results

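Reference genes are genes whose transcript is taken to vary little between samples, so that the level of another transcript can be divided by theirs in PCR. A set of 9 such genes that are common in bone and bone marrow work was followed over 4 bones: Gapdh, Actb, Hprt, Tbp, Ppia, Ywhaz, Sdha, Pgk1 and Gusb. They were found by name among the array's probes, with Hprt1 accepted as the older symbol of Hprt, and are 9 of 27594 genes with a value. The bones were the maxilla and the mandible of the jaw, and the ilium and the femur of the trunk and limb, all from male C57BL/6 mice aged 35 days, untreated and with no allele stated in the labels. RNA of each bone was labelled with cyanine 3 and hybridised to 1 Agilent whole mouse genome array, so no bone had a replicate, and the number of animals behind each RNA is not given. The study divided its own PCR values for 5 neural crest and nerve stem cell markers by Gapdh, which makes Gapdh the gene of most interest here.

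The members come from unrelated parts of cell biology. Gapdh and Pgk1 encode consecutive enzymes of glycolysis, glyceraldehyde-3-phosphate dehydrogenase and phosphoglycerate kinase, and their transcripts are known to follow a cell's energy metabolism and, in many cells, its oxygen supply. Actb encodes cytoplasmic beta-actin, Hprt an enzyme that salvages purine bases, and Tbp the TATA-binding protein of the general transcription machinery. Ppia encodes cyclophilin A, a prolyl isomerase that binds cyclosporin, and Ywhaz the zeta form of the 14-3-3 adaptor proteins. Sdha encodes the flavoprotein subunit of succinate dehydrogenase in the mitochondrion, and Gusb the lysosomal enzyme beta-glucuronidase. Whole bones hold bone cells, marrow, attached muscle and, in jaws, teeth and epithelium, and a reference gene has to vary little over all of them to serve between bones.

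The sequence before the start of transcription is shown for 5 members. They were picked because, by the probe used for each gene, Gapdh varied most over the bones below. By the same probes, Hprt with Pgk1, and Ppia with Gusb, were the pairs whose ratio varied least. Each run is the 250 bases before the annotated start, 5′ to 3′ in the direction of the gene, from RefSeq on build GRCm38.p6, in which 7 of the 9 members matched. Capitals mark the GC box (GGGCGG or CCGCCC), the TATA box (TATAAA or TTTATA) and the CCAAT box (CCAAT or ATTGG). They also mark the ACGTG form of the hypoxia response core (ACGTG or CACGT), and other forms of that core were not searched.
Gapdh, chr6:125165774-125166023, minus strand: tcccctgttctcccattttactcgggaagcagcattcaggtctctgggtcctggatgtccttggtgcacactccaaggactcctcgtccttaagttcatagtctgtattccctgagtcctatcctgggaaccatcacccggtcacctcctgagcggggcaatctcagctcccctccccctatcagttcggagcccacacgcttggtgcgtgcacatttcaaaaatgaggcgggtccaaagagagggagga
Pgk1, chrX:106186850-106187099, plus strand: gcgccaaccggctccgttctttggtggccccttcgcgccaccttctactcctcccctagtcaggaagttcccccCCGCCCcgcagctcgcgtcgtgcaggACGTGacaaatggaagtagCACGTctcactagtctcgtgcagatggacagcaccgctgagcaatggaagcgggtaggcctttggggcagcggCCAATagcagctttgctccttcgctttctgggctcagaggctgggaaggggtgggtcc
Hprt, chrX:52987828-52988077, plus strand: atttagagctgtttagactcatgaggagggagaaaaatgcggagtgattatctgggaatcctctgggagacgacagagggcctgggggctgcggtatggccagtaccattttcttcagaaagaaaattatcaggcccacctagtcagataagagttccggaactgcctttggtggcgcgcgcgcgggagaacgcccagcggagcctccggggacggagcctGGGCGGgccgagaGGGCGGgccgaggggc
Ppia, chr11:6415617-6415866, plus strand: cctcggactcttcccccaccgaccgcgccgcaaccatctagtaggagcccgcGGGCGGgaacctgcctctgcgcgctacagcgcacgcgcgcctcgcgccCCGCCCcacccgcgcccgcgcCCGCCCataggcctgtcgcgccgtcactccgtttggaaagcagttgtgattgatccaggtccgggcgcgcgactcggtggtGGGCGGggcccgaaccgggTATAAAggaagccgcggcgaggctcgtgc
Gusb, chr5:130003050-130003299, minus strand: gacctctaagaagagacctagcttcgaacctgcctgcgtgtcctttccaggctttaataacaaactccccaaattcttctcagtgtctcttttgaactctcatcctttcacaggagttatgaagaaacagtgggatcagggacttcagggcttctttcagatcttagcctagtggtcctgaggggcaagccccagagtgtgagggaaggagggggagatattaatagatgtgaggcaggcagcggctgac
Among the 7 members with a sequence, 4 held the GC box, against 32.7% of all 32851 promoters in the table. The TATA box was in 1 of the 7 members, Ppia, against 12.4% of all promoters. The CCAAT box was in 2 of the 7 members, against 33.8% of all promoters. The ACGTG form of the hypoxia core was in 2, Pgk1 and Sdha, against 16.6%. The printed windows of Gapdh and Gusb held none of these letters, which says nothing of the factors that may act there. The share of G and C was 72.4% for Ppia, 62.8% for Pgk1, 59.6% for Hprt, 55.6% for Gapdh and 49.6% for Gusb, beside a median of 52.4% over all promoters.

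A level here is the log2 of a probe's processed signal over its array's 75th percentile of signal, so 0 is that percentile. Between 72.8% and 75.5% of 43379 spots per array were well above background and 0 were saturated. The percentile itself was 809 signal units on the maxilla array and 1142 on the mandible array, against 1142 on the ilium array and 1208 on the femur array. The 9 members had 17 probes, of which 16 carried the gene's name or Hprt1 and 1 was named through an older symbol of Sdha. Of these, 16 were well above background on all 4 arrays, and the exception was a Ywhaz probe placed on chromosome 1. Where a gene had several probes, its value was that of the probe with the highest mean.

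Gapdh varied most. Its level was 4.88 in the maxilla and 5.86 in the mandible, against 6.47 in the ilium and 6.36 in the femur. The maxilla stood apart as the lowest bone, the mandible lay between, and the ilium and femur differed by 0.107 from each other. In processed signal the same spot read 23914 in the maxilla and 66536 in the mandible, against 101371 in the ilium and 99516 in the femur. The range over the bones was 1.59, a 3.00-fold span, and the SD over the bones was 0.72. The genes tested were the 20616 that stood well above background in 2 or more bones, and 64.7% of them had a smaller SD than Gapdh. In RNA of a whole bone, fewer cells of a type and less transcript per cell cannot be told apart.

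The Gapdh probe matches the RefSeq transcript and lies at chr6:125128116-125128174 on the minus strand of build mm8. It was printed in 1 spot, which on all 4 arrays was read from the low-gain scan, as the scanner files flag it. After the values had been seen, the array was searched for other probes whose description names the same enzyme, most of them placed on other chromosomes. There were 15, and 11 of them were well above background on all 4 arrays. In 11 of these 11 the maxilla was the lowest bone, as it was for 34.0% of all genes tested, and both jaw bones lay below both trunk and limb bones, as for 36.3% of all genes tested. Their SDs over the bones ran from 0.53 to 1.21. Their jaw minus trunk and limb difference ran from -1.59 to -0.64, with a median of -1.03. Of the 11, 5 had no spot read from the low-gain scan, and their differences ran from -1.59 to -0.81. Such copies can share labelled transcript with Gapdh, so these probes are not separate genes with separate evidence. The sperm form, Gapdhs, had 2 probes, well above background on 0 arrays and on 1 array.

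Ywhaz had the smallest SD. Its level was 1.86 in the maxilla and 1.60 in the mandible, against 1.79 in the ilium and 1.95 in the femur. The bones of the classes overlapped, since the maxilla lay between the ilium and the femur. The SD was 0.15 and the span 1.28-fold, and 8.16% of the genes tested had a smaller SD. The probe was printed in 1 spot per array, as was the probe used for Actb, so the spot error within these small SDs was not measured. The extraction program put the error of each such signal at 10.0%. Hprt, Pgk1, Ppia and Gusb were averaged over 10 spots. By range Actb came before Ywhaz, at 0.348 against 0.354, and by SD Actb came first when the maxilla or the ilium was left out, with Ywhaz at rank 3 and rank 2. A second RefSeq probe of Ywhaz, also on chromosome 15, had an SD of 0.13, with levels of -0.77 in the maxilla and -0.76 in the mandible, against -0.91 in the ilium and -0.60 in the femur.

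Actb had probes that ran opposite ways. The probe used for the gene, which the array design names Actb after a cDNA clone and places at chrX:147774990-147775049, read 3.86 in the maxilla and 4.10 in the mandible, against 4.19 in the ilium and 4.21 in the femur. Its SD was 0.16, so Actb came next after Ywhaz. The probe for the RefSeq transcript of Actb, at chr5:143168706-143168765 on the minus strand of mm8, read 1.97 in the maxilla and 1.66 in the mandible, against 1.02 in the ilium and 1.34 in the femur. Both jaw bones were higher than both trunk and limb bones by this probe, and its SD was 0.41. It was printed in 10 spots with an SD between spots of 0.037 to 0.066 within an array, and 1 of its 40 spots was left out as an outlier. A further pair of probes, described as fragments of cytoskeletal beta-actin and placed on chromosomes 4 and 11, had SDs of 1.14 and 0.95 with the maxilla lowest. Which transcripts each of these probes reports cannot be told apart here, so the low spread of Actb rests on the choice of the probe on chromosome X.

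Hprt read 3.64 in the maxilla and 3.53 in the mandible, against 4.12 in the ilium and 4.13 in the femur, with an SD of 0.32. The bones of each class lay close, 0.111 apart in the jaw and 0.010 apart in the trunk and limb, with both jaw bones below both others. Pgk1, the other glycolytic enzyme of the set, read 4.62 in the maxilla and 4.87 in the mandible, against 5.41 in the ilium and 5.30 in the femur, with an SD of 0.37. It ran in the same order of bones as Gapdh, at a span of 1.74-fold. Its second probe, which overlaps the first on the transcript, had an SD of 0.36.

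Tbp read -2.32 in the maxilla and -2.18 in the mandible, against -1.65 in the ilium and -1.39 in the femur, with an SD of 0.44. Its second probe, of a cDNA clone, had an SD of 0.38 and the same order of bones. Sdha read 1.90 in the maxilla and 2.78 in the mandible, against 2.71 in the ilium and 2.64 in the femur, with an SD of 0.41. Here the maxilla alone was low, and without it the SD was 0.070. The other Sdha probes did not repeat that size, with an SD of 0.18 for the second RefSeq probe and of 0.32 for the clone probe, in which the ilium and the femur were lowest.

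Ppia and Gusb had the mandible lowest. Ppia read 3.56 in the maxilla and 2.98 in the mandible, against 3.74 in the ilium and 3.80 in the femur, with an SD of 0.37. Gusb read 2.28 in the maxilla and 1.54 in the mandible, against 2.38 in the ilium and 2.20 in the femur, with an SD of 0.38. The other Gusb probe gave 0.05 in the maxilla and -0.05 in the mandible, against 0.49 in the ilium and 0.33 in the femur. By that probe both jaw bones were lower and the mandible stood less apart. The spread of both genes rested on the mandible array, since without it the SD was 0.122 for Ppia and 0.094 for Gusb.

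**Figure D1:**
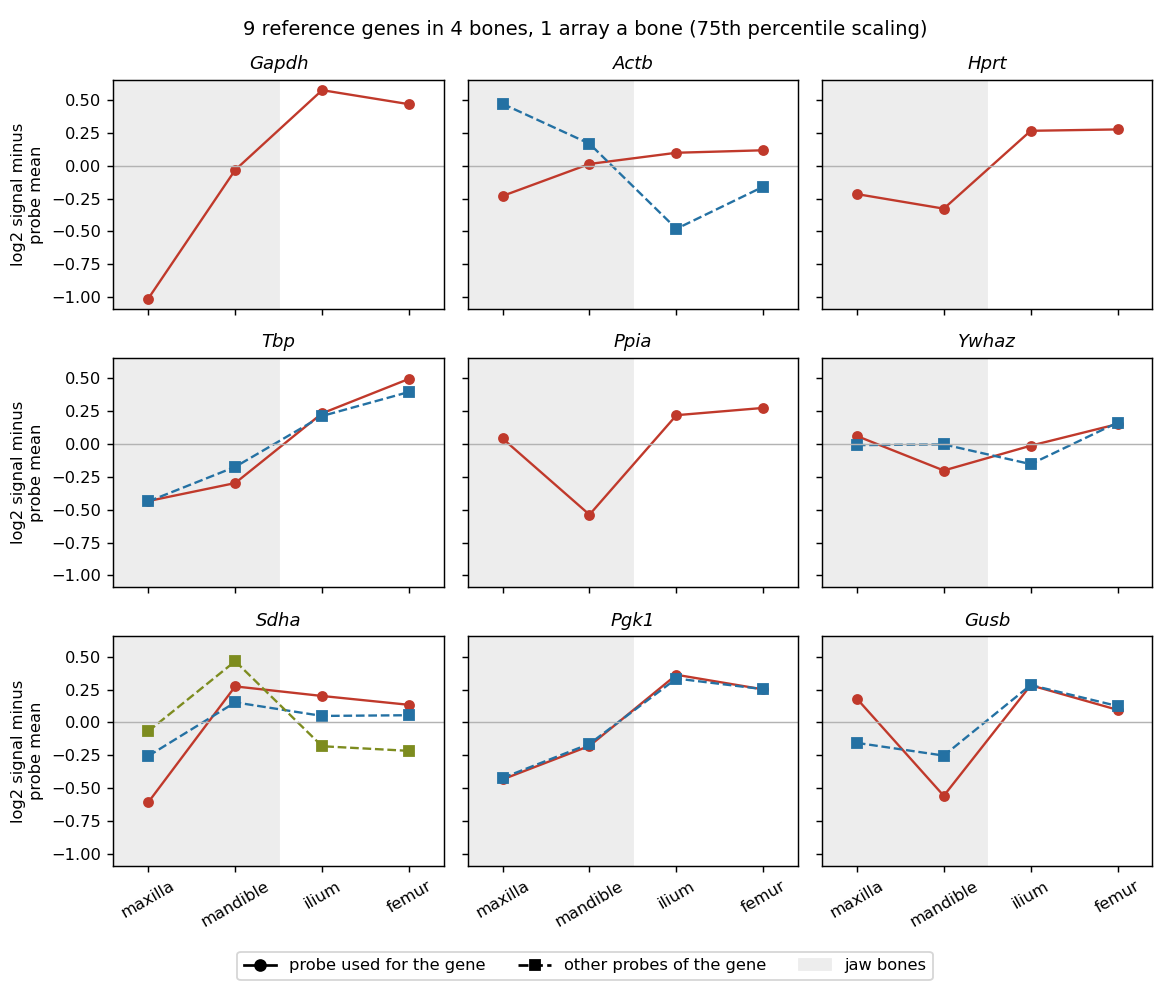
Log2 signal of each of the 16 probes well above background on all 4 arrays, minus that probe's mean, in the maxilla, mandible, ilium and femur (1 array each), with jaw bones shaded. Lines join the bones of 1 probe and show no trend; Gapdh spans 1.59, and the probes of Actb run opposite ways.

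Across the set, 5 members had their lowest level in the maxilla and 4 in the mandible, and none had it in the ilium or the femur. Over all genes tested the maxilla was lowest for 34.0%, and the shares of the other bones were not taken. A range of 2-fold or more over the bones was met by 1 of the 9 members, Gapdh, against 54.2% of the genes tested. The members' median SD was 0.37, beside 0.51 over all genes tested, and 8 of the 9 members lay below that median. Under normexp background correction the medians were 0.378 for the members and 0.369 over all genes, so the members were not the steadier there. Under the other array scalings used below the members' median was the lower. Within the jaw, 0 of 9 members differed 2-fold between maxilla and mandible, against 22.2% of genes. Gapdh at 0.980 and Sdha at 0.882 were lower in the maxilla, and Gusb at 0.740 and Ppia at 0.580 were higher there than in the mandible. Between ilium and femur 0 of 9 differed 2-fold, against 4.19% of genes, and the median difference in size was 0.107 over the members and 0.192 over all genes. For scale, repeat spots of 1 probe on an array differed with a median SD of 0.061 to 0.083, which is technical error of that array and not error of a bone.

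The order by spread was then set against the scaling of the arrays. Gapdh ranked last of the 9 in 7 of 7 scalings (75th percentile, array median, quantile normalization, no scaling, spike-in control spots, normexp background correction and the authors' deposited series table), with an SD of 0.68 to 0.98. Ywhaz ranked first in 6 of the 7 and second under quantile normalization, where Actb came first, and its SD ran from 0.14 to 0.28. Actb, by its chromosome X probe, ranked 1 to 4, with an SD of 0.091 to 0.42. Gusb ranked 2 to 7, Tbp 4 to 8, Hprt and Ppia 3 to 5, Pgk1 4 to 6 and Sdha 7 to 8. The rank of Gapdh rested on the maxilla array: without it, Gapdh ranked 5 of 9.

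**Figure D2:**
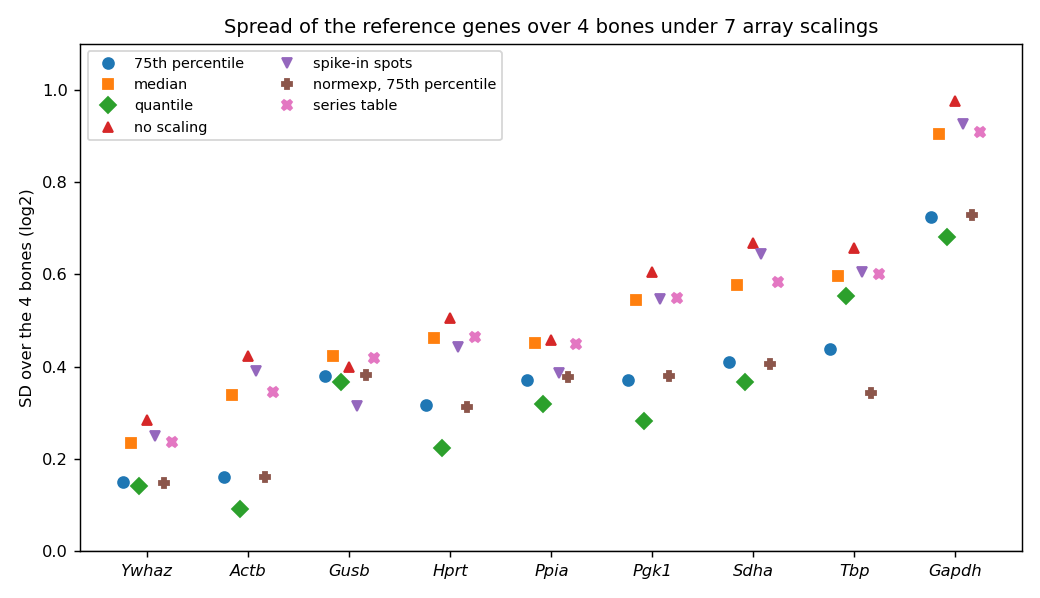
SD over the 4 bones (log2, y axis) of each reference gene under 7 array scalings (markers), genes ordered by their mean SD. Gapdh lies highest under each scaling, at 0.68 to 0.98, and Ywhaz lies at 0.14 to 0.28.

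The jaw bones were compared with the trunk and limb bones with limma across the 20616 genes, with the bone as the unit. The p-values therefore set the class difference against the spread between bones of 1 class, pooled in part over all genes, and not against a spread between animals. That spread also holds differences between arrays, since each bone had 1 array. The fitted difference was below 0 for 9 of 9 members, in each of the 7 scalings. The share of all genes below 0 was not taken, and their median difference ran from -0.32 with no scaling to 0.07 with normexp. By other probes the difference was above 0, at 0.64 for the RefSeq probe of Actb and 0.40 for the clone probe of Sdha. By limma 0 of 9 passed an adjusted p of 0.05, against 11.8% of all genes in either direction and 7.25% for genes lower in the jaw. At an unadjusted p under 0.05 there were 2 members, Tbp and Pgk1, against 34.4% of all genes. Both jaw bones lay below both trunk and limb bones for 6 of 9 members, Gapdh, Actb, Hprt, Tbp, Ppia and Pgk1, against 36.3% of all genes, and above them for 0 of 9, against 31.9%. For Actb the RefSeq probe gave the opposite order. The members' median difference was -0.50, beside -0.03 over all genes tested.

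With all 4 bones Gapdh had the largest fitted difference of the 9, -1.04 ± 0.41 (SE), with a 95% interval of -2.20 to 0.11 and an adjusted p of 0.171 by limma with Benjamini-Hochberg adjustment. It was lower in 2 of 2 jaw bones, and the fitted difference is 2.06-fold in linear terms. For Tbp the difference was -0.73 ± 0.22, with an interval of -1.35 to -0.11 and an adjusted p of 0.110 by limma. Pgk1 had -0.61 ± 0.21 with an adjusted p of 0.144 by limma, and Hprt -0.54 ± 0.19 with an adjusted p of 0.148. The intervals of Ywhaz, -0.77 to 0.49, and of Actb, -0.81 to 0.38, reach well below 0. A missing call at this number of arrays thus does not show that a member was equal between the classes. Without the maxilla array the difference of Gapdh was -0.55 with an adjusted p of 0.107 by limma, smaller in size than those of Ppia at -0.78, Gusb at -0.75, Tbp at -0.66 and Hprt at -0.60. Without the mandible array the difference was -1.53 for Gapdh and -0.78 for Sdha. In that fit the maxilla was the single jaw bone and was assumed to vary like the others.

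**Figure D3:**
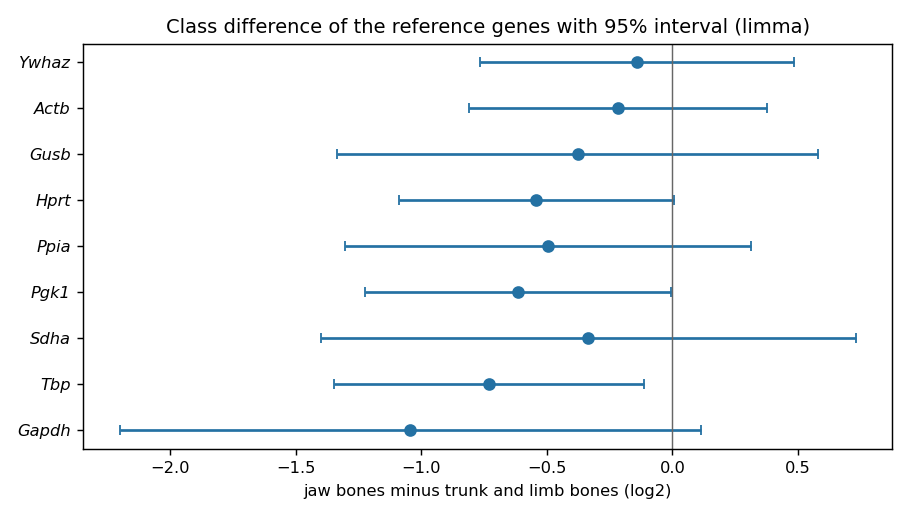
Jaw minus trunk and limb difference (log2, x axis) of each reference gene with its 95% interval from limma, 2 bones a class. The interval of Tbp, -1.35 to -0.11, lies below 0, and that of Gapdh reaches from -2.20 to 0.11.

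A ratio of 2 genes on the same array does not depend on how the array was scaled by a constant. For each of the 36 pairs of members the SD of the log2 ratio over the bones was taken. The smallest was 0.137 for Ppia and Gusb, then 0.163 for Hprt and Pgk1, 0.174 for Tbp and Pgk1 and 0.181 for Hprt and Tbp. Ppia and Gusb share the low mandible by the Gusb probe used, and Hprt, Pgk1 and Tbp share lower levels in both jaw bones. In the other Gusb probe the mandible stood less apart, and pair ratios were not taken with it. The place of Ppia and Gusb as the smallest pair thus rests on that choice of probe. The largest were 0.801 for Gapdh and Gusb, 0.736 for Gapdh and Ywhaz, 0.714 for Gapdh and Ppia and 0.665 for Sdha and Gusb. Of the 8 largest pairs, 5 held Gapdh.

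Averaged over its 8 partners, a member's ratio SD was 0.283 for Hprt, 0.301 for Pgk1, 0.330 for Actb, 0.332 for Tbp, 0.370 for both Ppia and Ywhaz, 0.433 for Gusb, 0.447 for Sdha and 0.571 for Gapdh. Gapdh was thus last by this measure too, whereas Ywhaz, first by its own SD, came sixth. The measure favours genes that change together: Hprt, Pgk1 and Tbp all read lower in the jaw and are close to each other for that. Removing the gene with the highest average in turn took out Gapdh, Sdha, Gusb, Ppia, Ywhaz, Actb and Tbp, and left Hprt and Pgk1. With the RefSeq probe of Actb in place of the other, Actb had an average of 0.742 and was removed before Gapdh, and Hprt and Pgk1 were again left. Without the maxilla array the average of Gapdh was 0.180, the second lowest of the 9 after Hprt at 0.179, and Sdha had the highest at 0.374.

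**Figure D4:**
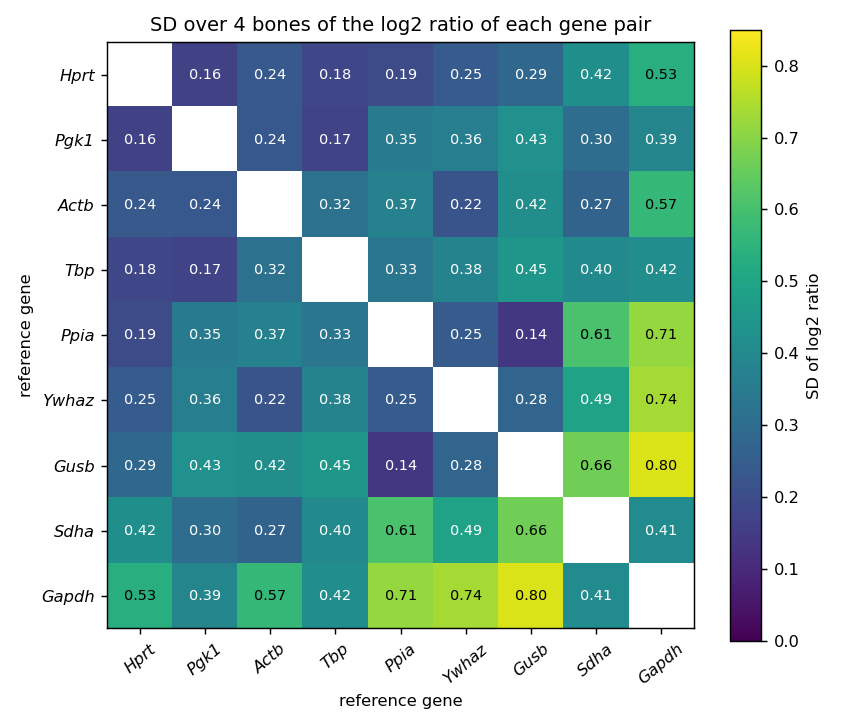
SD over the 4 bones of the log2 ratio of each pair of reference genes (colour and number), genes ordered by their average over the other 8. Ppia with Gusb gives 0.14 and Gapdh with Gusb 0.80.

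The study's PCR markers show what the choice of divisor does to a comparison of bones. They are Wnt1, a ligand of early neural crest induction, Ngfr (the p75 neurotrophin receptor), Sox10, a factor of neural crest and glia, Nes (nestin, an intermediate filament of neural progenitors) and Msi1 (Musashi-1, an RNA-binding protein). The values below are array values divided by array values, and the PCR itself was not analysed here. Dividing by Gapdh raised every maxilla to ilium ratio 3.00-fold and every mandible to ilium ratio 1.52-fold, relative to the 75th percentile. Dividing by Ywhaz changed them to 0.950-fold and 1.14-fold of that value. Dividing by Gusb gave 1.07-fold and 1.79-fold, so that the mandible moved more than the maxilla.

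Wnt1 changed direction with the divisor. Its signal was dim, at -3.92 in the maxilla and -4.74 in the mandible, against -3.48 in the ilium and -3.29 in the femur. It was well above background in each bone, but its folds rest on low signal. It read 0.738 of the ilium level in the maxilla and 0.418 in the mandible by the 75th percentile scaling. Divided by Gapdh it read 2.22 times the ilium level in the maxilla and 0.637 in the mandible, and divided by Ywhaz 0.702 in the maxilla and 0.477 in the mandible. The maxilla stood above the ilium with 5 divisors, Gapdh, Hprt, Tbp, Sdha and Pgk1, and the mandible stood below it with all 9. The jaw minus trunk and limb difference of Wnt1 was 0.10 ± 0.71 (SE) relative to Gapdh, with an adjusted p of 0.915 by limma, and negative relative to each of the other 8 members, down to -0.80 ± 0.32 relative to Ywhaz with an adjusted p of 0.189. No divisor gave a call for Wnt1, so no difference of Wnt1 between the classes was shown in either direction.

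Ngfr, Sox10 and Nes lay above the ilium in both jaw bones with each of the 9 divisors, and the divisor changed the size. Ngfr was higher in the jaw relative to each of the 9 members, by 2.84 with Ywhaz to 3.74 with Gapdh, and passed the test with 6 of the 9. By the percentile scaling its difference was 2.70 with an adjusted p of 0.062 by limma, which was not a call. Gusb was among the 6, where limma's prior degrees of freedom were 28.0, against 1.757 by the percentile scaling. The class difference of Sox10 passed with 1 of the 9 and that of Nes with 2, so the folds below mostly belong to differences that were not called. Sox10 was 81.5-fold above the ilium in the maxilla when divided by Gapdh and 25.8-fold when divided by Ywhaz, and in the mandible 2.96-fold and 2.21-fold. Nes was 6.11-fold above the ilium in the maxilla and 14.2-fold in the mandible when divided by Gapdh, and 1.93-fold and 10.6-fold when divided by Ywhaz. Msi1, which differed little between bones by the percentile scaling (1.25-fold in the maxilla and 1.02-fold in the mandible), read 3.75-fold and 1.56-fold when divided by Gapdh. In the mandible Msi1 lay below the ilium when divided by Sdha, at 0.973, and above it with the other 8 members. Its class difference relative to Gapdh was 1.23 with an adjusted p of 0.204 by limma, and Msi1 passed the test with 0 of the 9.

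**Figure D5:**
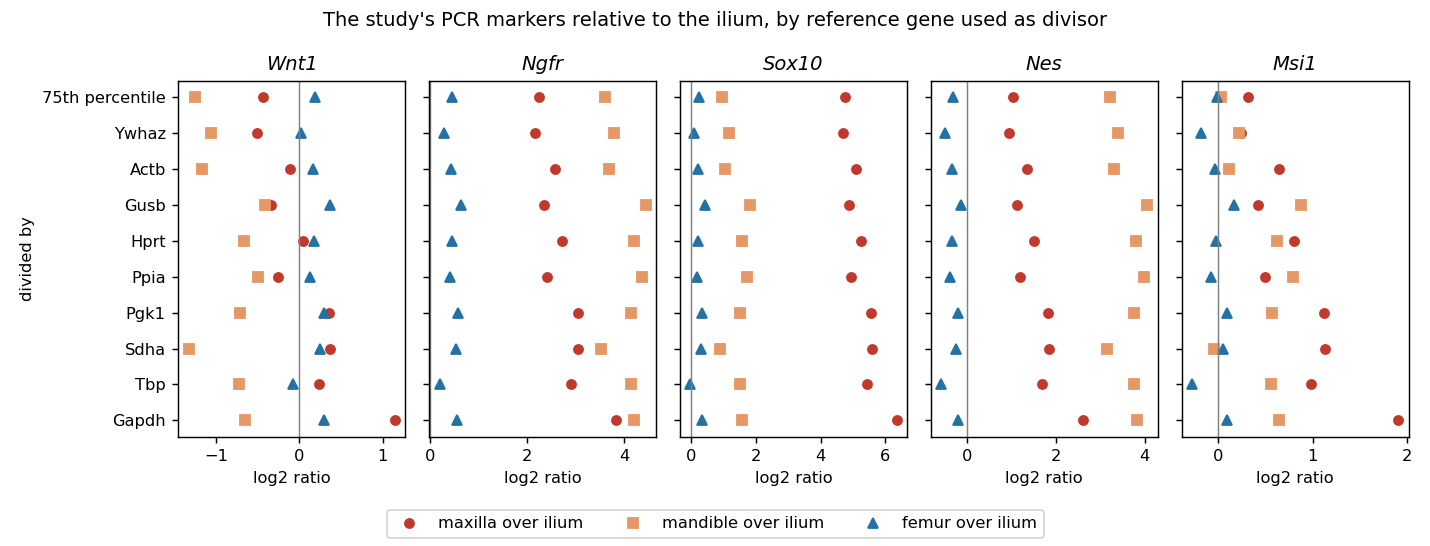
Log2 ratio to the ilium (x axis) of the 5 PCR markers in the maxilla, mandible and femur, after division by the array's 75th percentile or by each reference gene (rows). Maxilla points lie farthest right with Gapdh, and for Wnt1 they cross 0, at 0.738 of the ilium by percentile and 2.22 times with Gapdh.

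The divisor also turned the count over all genes. Scaled to the percentile, 929 genes were higher and 1494 lower in the jaw. Divided by Gapdh, 2085 were higher and 86 lower, and the median of all genes moved to 1.02. Divided by Ywhaz, 789 were higher and 953 lower, with a median of 0.11. Divided by Hprt, 2582 were higher and 889 lower, with a median of 0.52. Divided by the mean of the 8 members other than Gapdh, 2042 were higher and 1022 lower, with a median of 0.40. A single spot's error enters every gene in such a division, and the counts are given as what each divisor yields and not as counts of changed genes.

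Genes of the members' own pathways were read from lists. Each of these lists includes its own member or members, such as Gapdh and Pgk1 in glycolysis. The counts below therefore hold the members' own values and are no separate test of whether the members move with their pathways. Of 20 glycolysis genes 20 were tested, 2 were lower in the jaw (Hk1 and Hk3, hexokinases), 2 were higher (Eno2, an enolase, and Ldhb, a lactate dehydrogenase subunit), and 13 spanned 2-fold or more over the bones. Over all genes tested 7.25% were lower, 4.51% were higher and 54.2% spanned 2-fold or more. The maxilla was lowest for 14 of the 20, against 34.0% of all genes. Aldoa, an aldolase, read 7.32 in the maxilla and 8.43 in the mandible, against 8.62 in the ilium and 8.58 in the femur. Pgam1, phosphoglycerate mutase, had the narrowest range, 0.25, and Aldoc, the brain aldolase, the widest, 3.86, with the maxilla highest.

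The 6 actin genes had 0 calls, 4 of them spanned 2-fold or more, and the maxilla was lowest for 5. For this list and the next, the shares over all genes tested were 11.8% called, 54.2% spanning 2-fold and 34.0% with the maxilla lowest. Acta1, skeletal muscle actin, read 4.63 in the maxilla and 7.25 in the mandible, against 7.56 in the ilium and 7.53 in the femur. Actg1, cytoplasmic gamma-actin, had the narrowest range, 0.71. Of 18 genes of succinate dehydrogenase and the citric acid cycle 0 were called, 4 spanned 2-fold or more, and the maxilla was lowest for 16, Sdha among them. Suclg1, a succinyl-CoA ligase subunit, spanned 0.36 and Idh3b, an isocitrate dehydrogenase subunit, 1.27.

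Of the 6 purine salvage genes 3 were lower in the jaw, namely Pnp, Ada and Dck, against 7.25% of all genes tested. Dck, deoxycytidine kinase, spanned 3.19, whereas Hprt spanned 0.60. Of the 14 genes of TFIID and RNA polymerase II 0 were called, against 11.8% of all genes tested in either direction. Of the 14, 13 had a difference below 0, where the median difference of all genes tested was -0.03. Taf10, a TFIID subunit, read 2.49 in the maxilla and 2.34 in the mandible, against 3.08 in both the ilium and the femur. Of the 9 cyclophilins 0 were called. Ppib, cyclophilin B of the secretory pathway, went the other way from Ppia, at 5.45 in the maxilla and 4.94 in the mandible, against 4.48 in the ilium and 4.22 in the femur. Of the 7 genes of the 14-3-3 family 0 were called, and Ywhae, the epsilon form, spanned 0.17, less than the 0.35 of Ywhaz. Of 15 lysosomal hydrolases 1 was lower in the jaw, Man2b1, a mannosidase, which is near the 7.25% of all genes tested. Ctsd, cathepsin D, spanned 0.20.

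Another 30 genes in use as PCR controls were set beside the 9 members. Of these, 8 had an SD below that of Ywhaz and 4 an SD above that of Gapdh. Among the smallest were 0.060 for Rpl4, a ribosomal protein, and 0.083 for Atp5b, the beta subunit of ATP synthase. Rpl4 read 3.32 in the maxilla and 3.42 in the mandible, against 3.31 in the ilium and 3.28 in the femur. Among the largest were 1.32 for Tuba1a, a tubulin, and 1.22 for Tfrc, the transferrin receptor. Both were called by limma, Tuba1a higher in the jaw with an adjusted p of 0.0358 and Tfrc lower with an adjusted p of 0.0399.

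The genes whose profile over the 4 bones lay nearest to that of Gapdh, by root mean square distance of centred log2 levels, were 3000002C10Rik at 0.023, Dnmt3b at 0.025, Slc32a1 at 0.026, Gm6316 at 0.035 and Ehd1 at 0.038. The first is described on the array as the same dehydrogenase. Among the members Pgk1 lay nearest, at 0.335, with 1770 tested genes nearer, and Gusb farthest, at 0.694. Over 4 points such nearness describes these arrays and no more.

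The tissue in each bone differed by its markers. Sums below are the log2 of added linear levels, so the brightest marker of a list weighs most. Summed over 8 markers, the skeletal muscle level was 7.17 in the maxilla and 9.46 in the mandible, against 9.67 in the ilium and 9.66 in the femur. These sums run in the same order of bones as Gapdh, but among the single markers only Acta1 did. Ckm, Mylpf, Tnnt3 and Myh1 had the mandible above the femur, and Actn3, Myh4 and Pvalb had the femur above the ilium. Of the 8 muscle markers 0 were called, against 11.8% of all genes tested. The maxilla was lowest for 8 of 8 muscle markers, against 34.0% of all genes tested. Of 7 erythroid markers with a value 6 were lower in the jaw, against 7.25% of all genes tested, with differences from -3.84 for Rhag to -2.58 for Alas2. The sum of the 7 was 8.43 in the maxilla and 8.45 in the mandible, against 9.21 in the ilium and 9.28 in the femur. Hba-a1, the brightest and not called, read 8.30 in the maxilla and 8.25 in the mandible, against 8.45 in the ilium and 8.47 in the femur. Of 8 neutrophil markers 5 and of 6 B cell markers 4 were lower in the jaw, against the same 7.25%. Of 6 tooth markers 4 were higher in the jaw, and of 5 tested epithelial markers 5, against 4.51% of all genes tested. Nasal and salivary markers summed to 9.05 in the maxilla and -1.19 in the mandible, against -1.20 in the ilium and -4.54 in the femur. Osteoblast markers summed to 9.37 in the maxilla and 9.22 in the mandible, against 8.98 in the ilium and 8.80 in the femur, and all 8 were well above background in each bone. Cartilage markers summed to 2.79 in the maxilla and 3.13 in the mandible, against 5.21 in the ilium and 2.42 in the femur. The part of muscle, marrow, tooth and glandular tissue in the members' levels was not tested.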

How the data were processed

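Per the labels, 4 one-colour Agilent arrays measured 1 bone each. The deposited scanner files hold spot intensity, written by Feature Extraction (version 9.5.3.1 in the submitters' processing notes) and background-subtracted and detrended per the file headers, with other fields such as spot flags and control types set by that program. The deposited series table holds log2 values relative to the ilium, made in GeneSpring per the series description, and neither source states how it was centred. Positions of probes are on mm8, per the file headers. No mm8 annotation was used, so exon or UTR positions are not given.

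Outlier spots were left out and the others of a probe averaged. Of 41174 probes, 24375 were named by accession, 6301 by symbol and 2426 by an older symbol through RefSeq GRCm38.p6, and 8072 kept the file's name. Genes well above background on at least 2 arrays entered limma 3.58.1 in R 4.3.3 (2 residual and 1.757 prior degrees of freedom, threshold 0.05), a step tested on simulated data. The labels do not say that bones came from separate animals, and all arrays lay on 1 slide, where position and bone cannot be told apart.

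The members and lists were chosen with earlier results of these data known. The genes named were all members with all probes, and of each list the brightest, the widest and the narrowest by range, the 3 smallest and 3 largest by SD among other control genes (some of these are not reported here), the 5 nearest to Gapdh and the 5 PCR markers. Called list genes, and probes described as the Gapdh enzyme or beta-actin, were named after their values were seen. Alternatives covered scaling, probe choice, outlier spots, background filters, the measure of spread and leaving out each bone. The number of arrays limits the precision.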

Additional observations from a re-analysis of the deposited data

How the results depend on the processing

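With 1 array a bone, each statement rests on single libraries, and no replicate error of a bone was measured. No paired analysis was possible because each bone had 1 array and the labels give no replicate number. With a bone left out, the residual spread of a gene comes only from the class that keeps 2 bones. Over all genes tested the median difference in size was 0.453 between maxilla and mandible and 0.192 between ilium and femur. The rank of Gapdh stayed at 9 of 9 under each alternative scaling, probe rule and outlier rule and by range, and leaving out 1 bone at a time gave 5 to 9, with 5 without the maxilla. Members called stayed at 0 except when a bone was left out, which gave 0 to 2, with 2 without the mandible. Genes called numbered 2423, 1120 with no filter on background and 0 to 8204 with a bone left out (by limma 0 without the ilium, where 3550 had an unadjusted p under 0.05, and 0 without the femur, where 2628 did, 6166 without the maxilla, 8204 without the mandible), and the cause was not tested. The split of higher to lower, 929 to 1494, was 603 to 1647 with the array median, 575 to 1540 with the series table, 593 to 1279 with quantile normalization, 620 to 1319 with no scaling and 1081 to 1386 with spike-in spots, and the median difference of all genes, -0.03, lay between -0.32 and 0.07 over the scalings. Relative to Tbp they were 4172, to Ppia 1392, to Sdha 323, to Pgk1 4041 and to the mean of the 9 members 3765, divisors chosen after seeing the data.

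The median SD of the members, 0.372, was 0.463 with the array median, 0.506 with no scaling, 0.465 with the series table and 0.533 relative to Gapdh, and 0.281 to 0.405 with a bone left out. The median range was 0.813. The mean ratio SD over members, 0.382, was 0.239 to 0.431 with a bone left out and 0.474 with the RefSeq probe of Actb, an alternative chosen after seeing the data. Differences reversed relative to Gapdh, by construction since Gapdh fell most: Actb 0.827, Hprt 0.501, Tbp 0.313, Ppia 0.549, Ywhaz 0.904, Sdha 0.709, Pgk1 0.430 and Gusb 0.666, with 0 of these past the test. Actb also reversed with the mean of all probes, at 0.211, and with its RefSeq probe, at 0.639, and Sdha without the maxilla, at 0.107. Of 152 alternative values of the members' differences, 11 reversed, 2 passed the threshold (Gapdh at -1.53 and Sdha at -0.776 without the mandible) and 139 kept sign and side.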
